A study of Mus musculus with 4 samples.

Results

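The genes described here encode 7 receptors through which phagocytes sense chemoattractants: the formyl peptide receptors Fpr1, Fpr2 and Fpr3, the complement anaphylatoxin receptors C5ar1 and C3ar1, the leukotriene B4 receptor Ltb4r1 and the platelet-activating factor receptor Ptafr. They were taken by gene symbol, as 7 of the 54532 genes counted, and each symbol stood on 1 row. All 7 had at least 10 counts in at least 1 library and so were among the 16369 genes tested. The RNA came from CD11b+Ly6g+ myeloid-derived suppressor cells (MDSCs), sorted from the lungs of male C57BL/6 mice aged 6 to 8 weeks that carried a model of the pre-metastatic niche (PMN), the lung environment that a tumor prepares before its cells arrive. All 4 groups received MCM, culture medium taken from B16F10 melanoma cells of the mouse, by intraperitoneal injection of 300 μl per mouse, and B16F10 cells by the tail vein on day 7. The Ctrl group had no peptide, and the TP5, sFD17 and FR17 groups had the named peptide under the skin at 40 μM/kg/day from day 3 until the lungs were taken on day 10. TP5 is thymopentin as a free pentapeptide, FR17 joins TP5 to a self-assembling peptide backbone by a linker that the protease MMP2 cuts, and sFD17 is the same construct with the pentapeptide scrambled, the control for assembly. Each group gave 1 library, made from cells pooled over 10 to 12 mice, so no difference below has a replicate check, and mice without the model are not analysed here.

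These receptors are heptahelical proteins coupled mainly to inhibitory G proteins. Formyl peptides are shed by bacteria and by damaged mitochondria, C5a and C3a are cut from complement proteins, and leukotriene B4 and platelet-activating factor are lipids made by activated leukocytes. On neutrophils their engagement drives chemotaxis, degranulation and the oxidative burst, and Fpr2 also binds annexin A1, serum amyloid A and the cathelicidin peptide. C3ar1 is found on many tissue macrophages as well as on granulocytes.

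The formyl peptide receptor genes lie side by side on chromosome 17 (GRCm38): Fpr1 (ENSMUSG00000045551) at 17876471 to 17883940 on the minus strand, Fpr2 (ENSMUSG00000052270) at 17887824 to 17893952 on the plus strand and Fpr3 (ENSMUSG00000079700) at 17887852 to 17971677 on the plus strand. Fpr3 thus begins inside Fpr2: its noncoding first exon of 48 bases, 17887852 to 17887899, lies within an exon of Fpr2 on the same strand, and its coding exon lies at 17970458 to 17971677. The coding sequences of Fpr2 and Fpr3 were identical at 928 of 1053 aligned bases (88.1%), against 69.7% for Fpr1 with Fpr2. The first 120 coding bases of both genes are shown because reads of Fpr3 must be told from those of the far more abundant Fpr2, and capitals mark the 8 bases at which Fpr3 differs (GRCm38, plus strand, chr17:17892744-17892863 and chr17:17970469-17970588).
Fpr2: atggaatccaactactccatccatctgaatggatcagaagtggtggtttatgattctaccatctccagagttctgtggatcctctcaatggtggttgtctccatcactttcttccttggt
Fpr3: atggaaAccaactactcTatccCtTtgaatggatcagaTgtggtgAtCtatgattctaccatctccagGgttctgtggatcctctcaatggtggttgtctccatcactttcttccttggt
Of all 50-base stretches in the annotated transcripts, 31.5% of those of Fpr2 and 7.30% of those of Fpr3 also occur in a transcript of another gene, which for both includes the other of the pair and the pseudogene Gm5966. At 100 bases the share was 12.3% for Fpr2, matching Gm5966 alone, and 0 for Fpr3. Gm5966 had 0 counts in all 4 libraries. The read length is not given in the sources used here, so how many reads could have been assigned to the wrong gene of the pair was not tested. The exons of the other members overlap no annotated exon of another gene.

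The remaining members lie apart: C5ar1 (ENSMUSG00000049130) on chromosome 7 from 16246743 to 16259540, C3ar1 (ENSMUSG00000040552) on chromosome 6 from 122847138 to 122856161, both on the minus strand, Ltb4r1 (ENSMUSG00000046908) on chromosome 14 from 55765962 to 55768494 and Ptafr (ENSMUSG00000056529) on chromosome 4 from 132564067 to 132582683, both on the plus strand. All 7 matched a promoter window in RefSeq (GRCm38.p6), reaching from 250 bases before to 50 bases after the start. The RefSeq window of Fpr3, 17970208 to 17970507, holds the start of its coding exon and not the first exon shared with Fpr2. Each window was searched on both strands for 4 motifs of factors at work in myeloid cells. The PU.1 core GAGGAA was in the windows of Fpr2, Fpr3, Ltb4r1 and Ptafr, 4 of the 7, and in 28.3% of all 32851 windows. The STAT motif TTCNNNGAA was in 1 member, Fpr2, and in 8.30% of all windows. The C/EBP motif TTGCNNAA (10.8% of all windows) and the IRF motif (an interferon response element, 2.71%) were in none of the 7. Fpr2, Ptafr, Fpr1 and C5ar1 were all highest in the sFD17 library and lowest in FR17 with TMM scaling, and of these Fpr1 and C5ar1 hold none of the 4 motifs. The 250 bases before the start of Fpr2 and Ptafr, the ones of this group with a match, are shown with these motif matches in capitals (plus strand, chr17:17887574-17887823 and chr4:132563817-132564066). TTCCTC is GAGGAA read on the opposite strand, and the matches do not overlap.
Fpr2 upstream: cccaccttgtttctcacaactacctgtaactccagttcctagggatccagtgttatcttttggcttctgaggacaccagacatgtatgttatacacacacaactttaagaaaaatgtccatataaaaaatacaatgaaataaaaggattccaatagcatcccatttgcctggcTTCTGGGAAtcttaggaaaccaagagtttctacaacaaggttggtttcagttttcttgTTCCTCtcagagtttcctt
Ptafr upstream: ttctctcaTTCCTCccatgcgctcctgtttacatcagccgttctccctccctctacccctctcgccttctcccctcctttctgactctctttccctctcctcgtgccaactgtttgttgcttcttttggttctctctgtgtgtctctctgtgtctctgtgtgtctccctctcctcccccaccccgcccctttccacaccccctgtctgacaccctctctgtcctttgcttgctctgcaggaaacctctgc

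The libraries held 15543071 to 19638228 counts on genes. Counts were scaled to CPM, counts relative to library size, with edgeR's TMM factors, which ran from 0.849 in sFD17 to 1.17 in FR17. Itgam, which encodes CD11b, had 302 to 433 CPM and Ly6g 73.1 to 111 CPM, so both genes of the sort were present in every library. The summed level of 12 neutrophil markers stood at 1.09 times Ctrl with TP5, 1.30 times with sFD17 and 0.886 times with FR17, where 4 of the 12 were higher than Ctrl. As a share of all counts these markers took 3.09% in Ctrl, 3.49% with TP5, 3.47% with sFD17 and 3.25% with FR17, so FR17 stood below Ctrl with TMM and above it with library size alone. That of 12 macrophage markers stood at 0.645, 0.363 and 1.17 times Ctrl in the same order, with all 12 lower than Ctrl in TP5 and in sFD17 and 11 higher in FR17. In bulk RNA, fewer cells of a type and less RNA per cell cannot be told apart, and values of these lists stand beside the receptors below.

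Per length of gene, C5ar1, Ptafr, Fpr2 and Fpr1 were the highest members and Fpr3 the lowest by far. In Ctrl the level was 405 CPM per kilobase of exon for C5ar1, 247 for Ptafr, 179 for Fpr2, 157 for Fpr1, 51.7 for Ltb4r1, 22.9 for C3ar1 and 0.700 for Fpr3. C5ar1 stood so high that 0.727% of tested genes were above it on this scale, whereas 12.2% were above C3ar1 and 73.8% above Fpr3. The order was the same in TP5 and sFD17, and in FR17 Fpr2 (147 CPM per kilobase) stood above Ptafr (138). Summed over the 7 genes, the level was 2550 CPM in Ctrl, 2201 with TP5, 3678 with sFD17 and 1694 with FR17, of which C5ar1 and Ptafr took 40.8% and 35.2% in Ctrl.

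**Figure D1:**
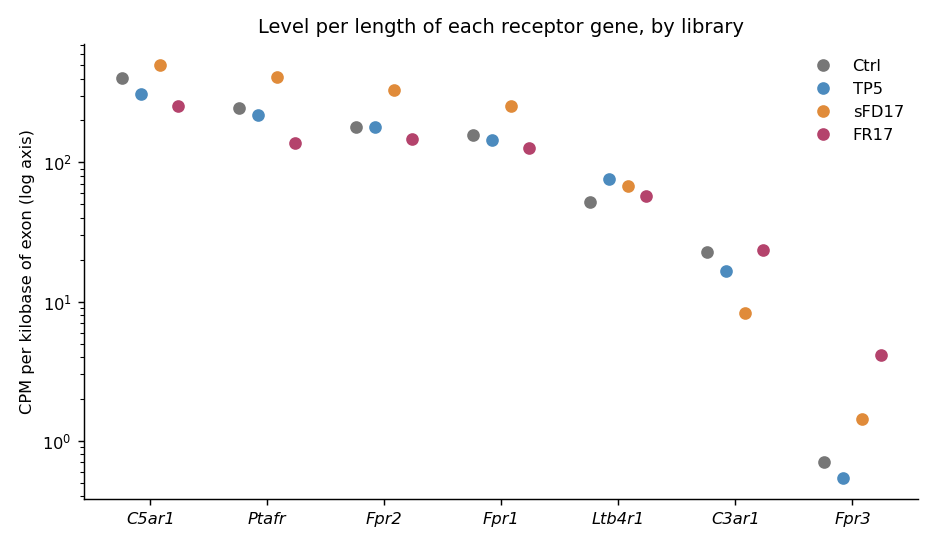
Level of each receptor gene in each library, in CPM per kilobase of exon on a log axis, with 1 point per library and no replicates. C5ar1 was the highest gene in all 4 libraries and Fpr3 the lowest, from 0.540 in TP5 to 4.16 in FR17.

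Fpr1, the receptor with the highest affinity for bacterial formyl peptides, had 3515 counts in Ctrl, 3342 with TP5, 4402 with sFD17 and 3865 with FR17. On the scaled level this was 208 CPM in Ctrl, 191 with TP5, 334 with sFD17 and 168 with FR17. Its highest library was therefore sFD17 and its lowest FR17, with a log2 difference of −0.99 for FR17 against sFD17, a fold of 0.505 and just short of 2-fold. With library size alone TP5 was the lowest, FR17 against TP5 going from −0.18 to 0.02. Fpr2, which also senses annexin A1, had 3929 counts in Ctrl, 4067 with TP5, 5705 with sFD17 and 4373 with FR17. Its level was 233 CPM in Ctrl, 232 with TP5, 432 with sFD17 and 190.5 with FR17. Fpr2 was likewise highest in sFD17 and lowest in FR17, with no clear order of Ctrl and TP5, and FR17 was lower than sFD17 by a log2 difference of −1.18 (95% interval −1.24 to −1.13). Here and below the interval is that of the pair of counts, which covers counting error only and not the spread between mice.

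Fpr3, a receptor close to Fpr2 in sequence, was the least abundant member and the one with the widest range. It had 15 counts in Ctrl, 12 with TP5, 24 with sFD17 and 121 with FR17. The level was 0.888 CPM in Ctrl (95% Wilson interval 0.538 to 1.47), 0.684 in TP5 (0.391 to 1.20), 1.82 in sFD17 (1.22 to 2.71) and 5.27 in FR17 (4.41 to 6.30). FR17 stood above the 3 other libraries, whose values were all under 2 CPM, and the interval of Ctrl overlapped those of TP5 and sFD17. Against Ctrl, Fpr3 in FR17 was 5.38-fold higher on the scale with a prior count of 2, a log2 difference of 2.43 (1.79 to 3.45). The range over the 4 libraries was 2.76 on the log2 scale, and 1.45% of all tested genes had a larger one. The neighboring Fpr2, its closest relative here, was not highest in FR17: there were 262 counts of Fpr2 for each count of Fpr3 in Ctrl, 339 with TP5, 238 with sFD17 and 36.1 with FR17, a ratio within each library that needs no scaling.

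With TMM, every marker list except that of neutrophils summed higher in FR17 than in Ctrl, and the lists furthest above Ctrl come first. The 6 NK cell markers summed to 447 counts in Ctrl, 277 with TP5, 272 with sFD17 and 1946 with FR17, where they stood at 3.20 times Ctrl with all 6 higher. The 7 T cell markers stood at 1.77 times Ctrl in FR17, again all higher, and the 7 markers of eosinophils, basophils and mast cells at 2.54 times. The last list stood at 1.96 times Ctrl in TP5, where Fpr3 was lowest, and at 1.27 times in sFD17. None of these markers was at 0 in FR17. The sort on CD11b and Ly6g is meant to leave such cells out, and their part in the Fpr3 value was not tested. With sFD17, where Fpr3 was 1.82 CPM, the NK cell markers stood at 0.779 times Ctrl and the T cell markers at 0.623 times, with 3 of the 7 T cell markers higher than Ctrl. Without Cd4, the T cell marker with the most counts, that list stood at 0.974 times Ctrl in sFD17. Other lists stood less far above Ctrl in FR17, such as the dendritic cell and B cell markers at 1.32 times. The 6 endothelium markers stood at 0.800, 1.12 and 1.26 times Ctrl in TP5, sFD17 and FR17, with TMM the same order of libraries as Fpr3. The part of these cells in the Fpr3 value was not tested either.

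**Figure D2:**
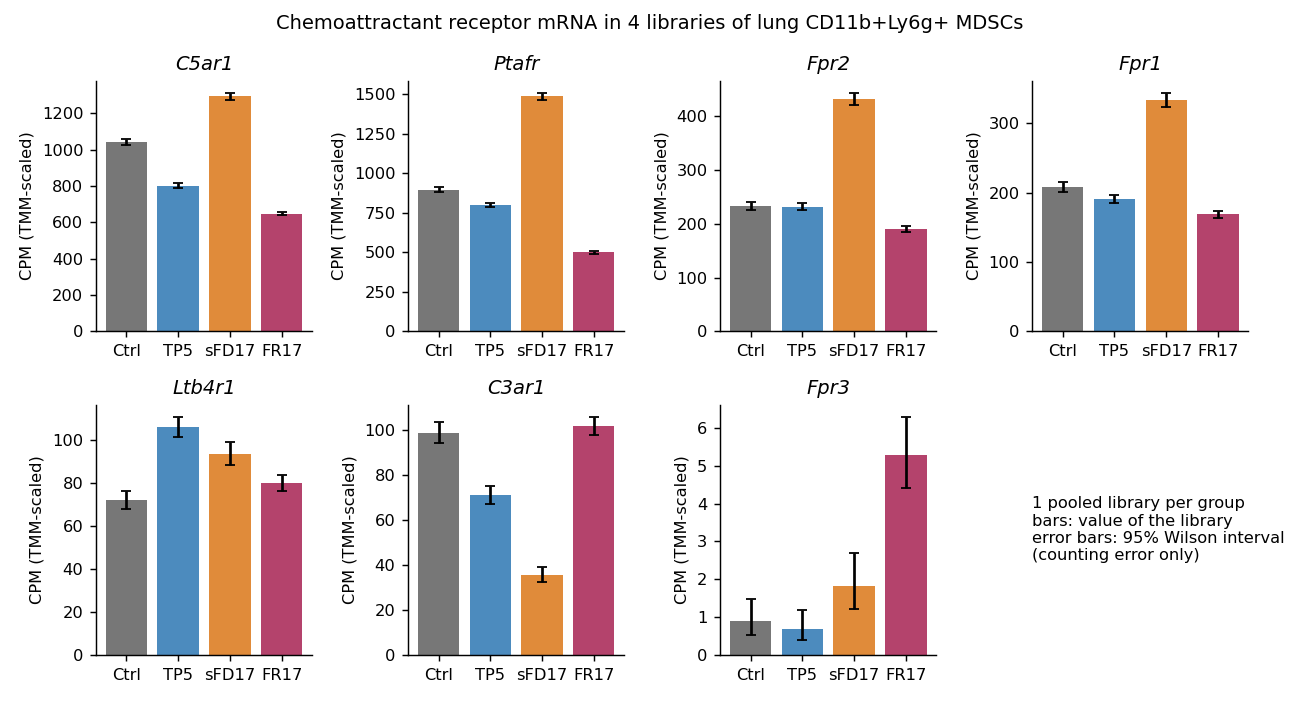
Level of each receptor gene in CPM (TMM-scaled) in the 4 libraries, with bars from 0, a separate axis for each gene and error bars for the 95% Wilson interval of the count (counting error only, 1 pooled library per group). C5ar1, Ptafr, Fpr2 and Fpr1 were highest in sFD17 and lowest in FR17 (Fpr1 lowest in TP5 with library size alone), C3ar1 was lowest in sFD17, and Fpr3 was highest in FR17.

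C5ar1, the receptor for the complement fragment C5a and a strong driver of neutrophil migration, had 17593 counts in Ctrl, 14040 with TP5, 17061 with sFD17 and 14874 with FR17. Its level was 1042 CPM in Ctrl, 800.4 with TP5, 1293 with sFD17 and 648 with FR17. C5ar1 was thus highest in sFD17 and lowest in FR17, as for Fpr2 and, with TMM, Fpr1, and FR17 stood at 0.501 times sFD17, just short of a 2-fold difference.

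C3ar1, the receptor for C3a, went the other way. It had 1664 counts in Ctrl, 1245 with TP5, 470 with sFD17 and 2330 with FR17, which gave 98.5 CPM in Ctrl, 71.0 with TP5, 35.6 with sFD17 and 101.5 with FR17. The sFD17 library stood below the 3 others. With TMM, FR17 and Ctrl were close to each other, with a log2 difference of 0.04 (−0.05 to 0.13). With library size alone that difference was 0.29. Against Ctrl, C3ar1 in sFD17 was lower by a log2 difference of −1.46 (−1.62 to −1.32), a fold of 0.362. There were 10.6 counts of C5ar1 for each count of C3ar1 in Ctrl, 11.3 with TP5, 36.3 with sFD17 and 6.38 with FR17, so the balance of the complement receptors within a library differed most between sFD17 and FR17.

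The macrophage markers followed the same order of libraries as C3ar1. Their share of all counts was 0.675% in Ctrl, 0.451% with TP5, 0.211% with sFD17 and 0.936% with FR17, and none of the 12 was at 0 in any library. Per 100 counts of these markers there were 1.44 counts of C3ar1 in Ctrl, 1.61 with TP5, 1.43 with sFD17 and 1.27 with FR17. Per 100 counts of the neutrophil markers there were 0.314, 0.208, 0.0871 and 0.365 counts of C3ar1 in the same order. These are ratios to chosen lists in single libraries, and the part of macrophages or of any other cell type in the C3ar1 value was not tested. The 7 T cell markers also had the order of C3ar1, at 0.833, 0.623 and 1.77 times Ctrl in TP5, sFD17 and FR17. So did the 6 platelet markers, at 0.429, 0.275 and 1.31 times. Neither of these lists kept that order without its most abundant gene. The 7 monocyte markers did not share it, at 1.06, 1.12 and 1.06 times Ctrl in TP5, sFD17 and FR17. Leaving out Apoe, the most abundant of the macrophage markers, the list stood at 0.606, 0.319 and 1.17 times Ctrl in TP5, sFD17 and FR17.

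**Figure D3:**
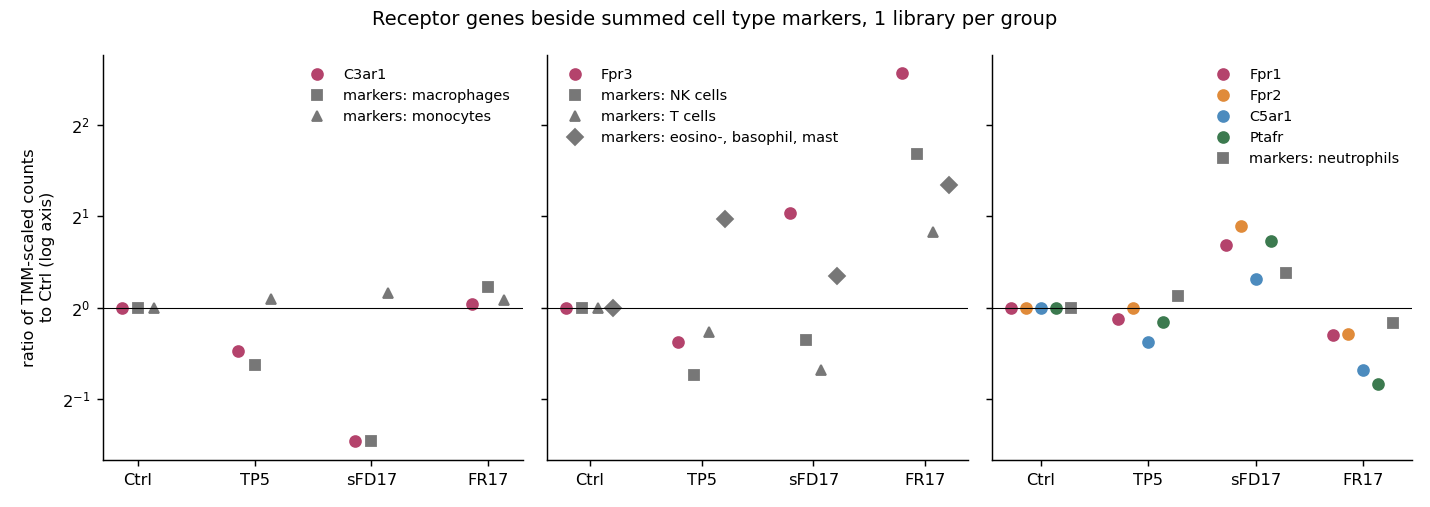
Ratio of each library's TMM-scaled counts to those of Ctrl, on a log axis, for receptor genes (colored circles) and for summed marker lists (gray symbols), with 1 library per group. C3ar1 and the macrophage markers lie close together in every library (0.362 and 0.363 times Ctrl in sFD17) while the monocyte markers stay at 1.06 to 1.12 times, Fpr3 and the NK cell markers are both highest in FR17, and Fpr1, Fpr2, C5ar1, Ptafr and the neutrophil markers all lie above Ctrl in sFD17 and below it in FR17, where with library size alone the markers lie above Ctrl and these receptors below.

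Ptafr, the receptor for platelet-activating factor, had the widest range of the members after Fpr3 with TMM scaling and with DESeq2's size factors. With library size alone its range was 1.11 on the log2 scale, below 1.97 for C3ar1. It had 15147 counts in Ctrl, 14042 with TP5, 19644 with sFD17 and 11496 with FR17. Its level was 897 CPM in Ctrl, 801 with TP5, 1488 with sFD17 and 501 with FR17. The libraries of the assembling peptides were thus the highest and the lowest, FR17 against sFD17 gave a log2 difference of −1.57 (−1.60 to −1.54), and FR17 against Ctrl gave −0.84 (−0.88 to −0.81). Per 100 counts of the neutrophil markers there were 2.86 counts of Ptafr in Ctrl, 2.34 with TP5, 3.64 with sFD17 and 1.80 with FR17. On this scale sFD17 also stood above FR17 for Fpr2 (1.06 and 0.685), Fpr1 (0.816 and 0.605) and C5ar1 (3.16 and 2.33). The other libraries did not all lie between them: C5ar1 was highest in Ctrl (3.32), and TP5 was lowest for Fpr1 (0.557) and Fpr2 (0.678). The ratio of Ptafr to C5ar1 counts was 0.861 in Ctrl, 1.00 with TP5, 1.15 with sFD17 and 0.773 with FR17, so Ptafr ranged more widely than C5ar1 within the same libraries.

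Ltb4r1, the high-affinity receptor for leukotriene B4, had the narrowest range of the members with TMM scaling and with DESeq2's size factors, but not with library size alone. It had 1217 counts in Ctrl, 1861 with TP5, 1238 with sFD17 and 1834 with FR17, and its level was 72.0 CPM in Ctrl, 106 with TP5, 93.8 with sFD17 and 79.9 with FR17. Ltb4r1 was the 1 member with its highest value in TP5, at a log2 difference of 0.56 (0.45 to 0.66) against Ctrl. Its range over the libraries was 0.56 on the log2 scale, and 64.4% of all tested genes had a larger one. With library size alone the range was 0.61 for Ltb4r1, 0.54 for C5ar1 and 0.54 for Fpr1. For comparison, the range was 1.57 for Ptafr (12.5% of genes larger), 1.51 for C3ar1 (14.1%), 1.18 for Fpr2 (24.0%), 1.00 for C5ar1 (33.0%) and 0.99 for Fpr1 (33.5%), so these genes ranged no more widely than many others.

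The libraries were compared in 6 pairs, of which 3 share Ctrl and every library stands in 3 pairs, so the pairs are not independent of each other. A gene was counted when its scaled level differed at least 2-fold, and edgeR's exact test was run beside it on each pair of libraries, at an unadjusted p under 0.05. That test compares the libraries and not the conditions, with a dispersion taken over the 4 libraries as 1 group. Against Ctrl, 0 of 7 members differed 2-fold in TP5, where 8.18% of all tested genes did, and the exact test called 0 members and 1.98% of genes. In sFD17, 1 of 7 differed 2-fold (11.8% of genes), and it was C3ar1, lower (6.47% of genes were lower 2-fold). The exact test called C3ar1 alone (4.79% of genes), with an unadjusted p of 0.002538. In FR17, 1 of 7 differed 2-fold (7.50% of genes), and it was Fpr3, higher (3.92% of genes were higher 2-fold). The exact test called Fpr3 alone (1.83% of genes), at p = 0.001474, a call that DESeq2's Wald test did not make (p = 0.05411). Each of these counts rests on a single gene, and neither says anything of the members as a group.

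FR17 and sFD17 share the dose, the days and the assembling backbone and differ in the order of residues of the pentapeptide. Between their libraries 4 of 7 members differed 2-fold, where 22.1% of all tested genes did. Fpr3 and C3ar1 were higher in FR17 (11.3% of genes), by log2 differences of 1.48 (0.89 to 2.23) and 1.51 (1.37 to 1.66), and Fpr2 and Ptafr were lower (10.8% of genes). The exact test called the same 4 members (12.6% of genes), at unadjusted p = 0.001885 for C3ar1, 0.004524 for Ptafr, 0.02497 for Fpr2 and 0.04435 for Fpr3. The call of Fpr3 was lost with DESeq2's size factors in the exact test (p = 0.0525) and in DESeq2's Wald test (p = 0.2567). Scaling by library size alone, without TMM, left the log2 difference of Fpr2 at −0.72 and turned the split of all genes from 1847 higher and 1766 lower to 4209 higher and 782 lower. With that scaling Ptafr was still lower (−1.11) and C3ar1 (1.97) and Fpr3 (1.92) still higher by over 2-fold.

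FR17 and TP5 carry the same pentapeptide, joined to the backbone or free, and were given at the same dose. Of the 7 members, 1 differed 2-fold (9.92% of genes), and it was Fpr3, higher in FR17 (7.04% of genes) by a log2 difference of 2.76 (2.09 to 3.94). The exact test called Fpr3 alone (3.65% of genes), at p = 0.0003541. The remaining log2 differences ran from −0.68 for Ptafr to 0.52 for C3ar1. They were smaller than in FR17 against sFD17 for Fpr1, Fpr2, C5ar1, C3ar1 and Ptafr and larger for Fpr3 and Ltb4r1 (−0.41 against −0.23), and whether the pairs differ was not tested. For sFD17 against TP5, 1 of 7 differed 2-fold (12.4% of genes), Fpr3 with 24 counts against 12, higher in sFD17 (6.74% of genes) by a log2 difference of 1.28 (0.35 to 2.54). There the exact test called C3ar1 in its place (4.59% of genes), at p = 0.03904 and a log2 difference of −0.99, a call lost with DESeq2's size factors in the exact test (p = 0.05244) and in DESeq2's Wald test (p = 0.1676). Ptafr, Fpr2, Fpr1 and C5ar1 were higher in sFD17 by 0.89, 0.90, 0.81 and 0.69. After Benjamini-Hochberg adjustment over all tested genes, edgeR's exact test called 0 members in any of the 6 pairs. The share of all tested genes so called ran from 0% in FR17 against Ctrl to 2.25% in FR17 against sFD17. The lowest adjusted p of a member in that test was 0.07261, for C3ar1 in FR17 against sFD17.

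**Figure D4:**
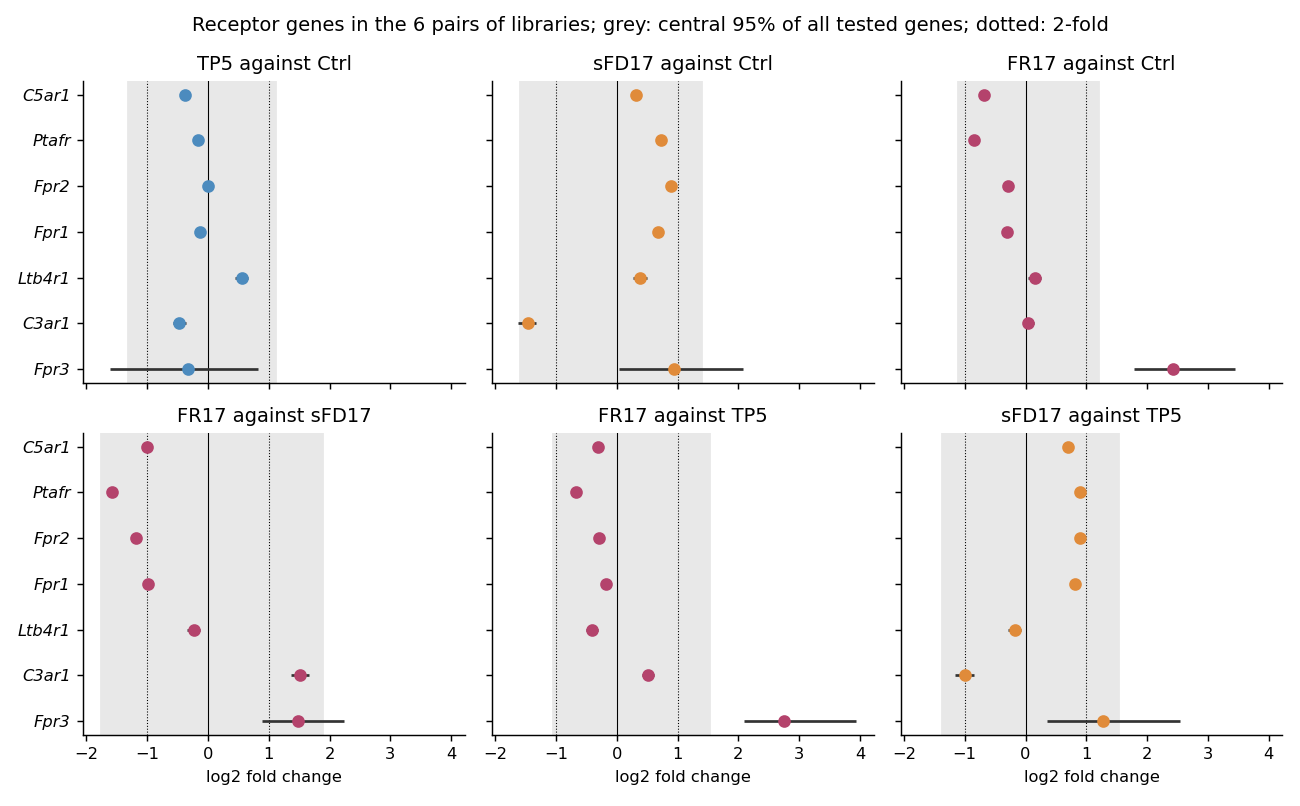
Log2 fold change of each receptor gene (points) in the 6 pairs of libraries, with its 95% counting interval (lines, counting error only), the range that holds the central 95% of all tested genes (gray) and the 2-fold limits (dotted). Fpr3 lies beyond the gray range in FR17 against Ctrl (2.43) and in FR17 against TP5 (2.76), and the other members lie inside it in every pair.

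Genes around the receptors were read from 4 lists, with counts and medians set beside the median of all tested genes, which was 0.00 with TP5, −0.03 with sFD17 and 0.02 with FR17 against Ctrl on the log2 scale. Among ligands and the enzymes that make them, 13 of 16 genes were tested, and 1 differed 2-fold from Ctrl with TP5, 0 with sFD17 and 0 with FR17, where 8.18%, 11.8% and 7.50% of all tested genes did, shares that stand behind the lists that follow as well. The 1 gene was Saa3, an acute-phase protein also made outside the liver, with 2053 counts in Ctrl, 652 with TP5, 896 with sFD17 and 1914 with FR17 and a log2 difference of −1.71 in TP5. The list medians were −0.05, 0.08 and 0.01, close to the median gene. Annexin A1 and the cathelicidin gene, ligands of Fpr2 and the genes of the list with the most counts in Ctrl, were not 2-fold different: Anxa1 stood at 0.19, 0.08 and −0.13 and Camp at 0.89, 0.50 and 0.53 in TP5, sFD17 and FR17.

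Among genes that inactivate these ligands, 8 of 9 were tested, and 1 was at least 2-fold higher than Ctrl with TP5, 0 with sFD17 and 2 with FR17, with none lower. Pafah2, which hydrolyzes platelet-activating factor, had 36 counts in Ctrl, 85 with TP5, 42 with sFD17 and 105 with FR17, and log2 differences of 1.14, 0.55 and 1.06. The second gene in FR17 was Mme, the membrane peptidase neprilysin that cleaves formyl peptides, with 7 counts in Ctrl and 24 in FR17, named after its values were seen because it makes up a count of 2. The genes with the most counts were Pla2g7, the secreted platelet-activating factor acetylhydrolase, and Cyp4f18, which oxidizes leukotriene B4, and they differed from Ctrl by −0.31 and −0.35 in TP5, 0.18 and 0.00 in sFD17 and −0.60 and −0.62 in FR17. The list medians were 0.05, 0.09 and −0.00.

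Of 18 related chemoattractant receptors, 12 were tested. The formyl peptide receptor genes Fpr-rs3, Fpr-rs4, Fpr-rs6 and Fpr-rs7 had 0 counts in all 4 libraries, which allows up to 0.131 CPM in FR17, the deepest library, and 0.227 CPM in sFD17. The median stood at −0.21 with TP5, 0.29 with sFD17 and −0.50 with FR17. Against Ctrl, 0 genes differed 2-fold in TP5, 1 was higher in sFD17 and 2 were lower in FR17. Gpr84, a receptor for medium-chain fatty acids, had 120 counts in Ctrl, 159 with TP5, 366 with sFD17 and 113 with FR17, and its log2 difference was 1.95 in sFD17 and −0.52 in FR17. The genes lower in FR17 were P2ry2, a receptor for extracellular nucleotides, at −1.07, and the chemokine receptor gene Cxcr1 at −1.14. The chemokine receptor genes Ccr1 and Cxcr2, with the most counts of the list, stood at 0.18 and 0.33 in sFD17 and at −0.80 and −0.88 in FR17. Between FR17 and sFD17 the list had 1 gene at least 2-fold higher (11.3% of all tested genes) and 5 lower (10.8%), with a median of −0.87 beside 0.07 for all genes, on a scaling under which the split of all genes moves as given above.

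All 34 genes of signaling and desensitization were tested, and 1 differed 2-fold from Ctrl in any peptide library. It was Rgs1, a regulator that shortens G protein signals, with 3663 counts in Ctrl, 2515 with TP5, 1081 with sFD17 and 4770 with FR17 and a log2 difference of −1.40 in sFD17. Like C3ar1, Rgs1 was lowest in sFD17. The list median was −0.03 with TP5, 0.21 with sFD17 and −0.21 with FR17, with 25 of the 34 genes above 0 in sFD17 and 5 in FR17. Gnai2, the inhibitory G protein subunit, stood at −0.04, 0.23 and −0.23 in TP5, sFD17 and FR17. With library size alone the median of all genes moved to −0.23 in sFD17 and 0.26 in FR17, a shift as large as these list medians, so their direction is relative to the median gene.

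**Figure D5:**
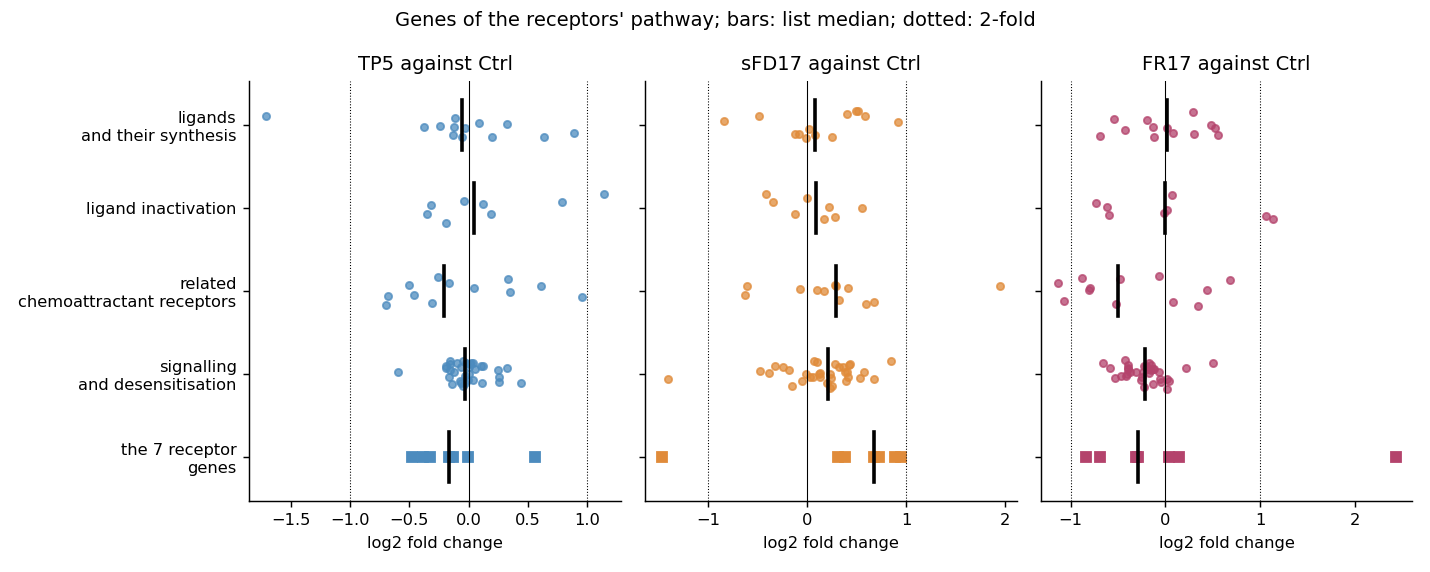
Log2 fold change against Ctrl of the tested genes of 4 lists around the receptors (circles, 13, 8, 12 and 34 genes) and of the 7 receptor genes (squares), with the list median as a bar and the 2-fold limits dotted, in panels whose horizontal axes differ. The related receptors and the signaling genes had medians of 0.29 and 0.21 in sFD17 and of −0.50 and −0.21 in FR17.

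For the members that differed 2-fold in any pair, the genes with the most similar pattern over the 4 libraries were found among 9800 genes with at least 50 counts in every library, by the root mean square difference of the log2 CPM after centering each gene on its own mean. With 4 libraries many genes can match by the measure alone, so these are a description. For Fpr2 they included Cdc42ep2 (0.0232) and Tdrd7 (0.0260). For Ptafr they were Tnfrsf14 (0.0297), Rab11fip1 (0.0303) and Ifitm5 (0.0369). For C3ar1 they were Nacc2 (0.0612), Nceh1 (0.0637) and Rnf180 (0.0674). For Fpr3 the nearest genes were far less close: Prf1 (0.268), Nkg7 (0.409) and Ccl5 (0.431), genes known for their expression in cytotoxic lymphocytes. Prf1, which encodes perforin and is 1 of the 6 NK cell markers above, had 62 counts in Ctrl, 52 with TP5, 62 with sFD17 and 352 with FR17.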

How the data were processed

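Lung CD11b+Ly6g+ MDSCs were sequenced as 1 pooled mRNA library per group. The authors extracted RNA with TRIzol, used the NEBNext Ultra Directional kit and deposited raw counts of reads on each gene, not normalized. The submitters' notes name HISAT2 2.0.5, StringTie 1.3.3b, featureCounts 1.5.0-p3, edgeR 3.18.1 and GRCm38.p6 without roles, and whether counting used the strand is not given. Groups came from the sample labels, and 0 sample columns were left unmapped.

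In R 4.3.3 with edgeR 4.0.16, genes with at least 10 counts in 1 library were tested. Log2 fold changes are of TMM-scaled CPM with a prior count of 2. With 1 library per group the quasi-likelihood test has no residual degrees of freedom, so edgeR's exact test used the trended dispersion over the 4 libraries (biological coefficient of variation, BCV, 0.212 to 0.449), which includes the treatment differences. Intervals are 95%, Wilson for levels and exact for ratios of counts, and 0 counts allow 3. Alternatives were size factors and the Wald test of DESeq2 1.42.0, library size alone, a prior count of 0.5, a fold of 1.5, stricter and no filters, a BCV of 0.2 or 0.4, Benjamini-Hochberg adjustment and marker lists without their top gene. Gene models, 50-base and 100-base matches and global alignments of coding sequence used GENCODE M21 (GRCm38), Biopython 1.88 and Python 3.11.15. Figures used matplotlib 3.10.9. The procedure was tested on simulated data. Members, lists, markers and tests were chosen with earlier results of these data known. Besides the 7 members, the text names list genes at least 2-fold different from Ctrl with at least 50 counts in 1 library of the pair, the 2 list genes with the most counts in Ctrl, and for each member 2-fold different in any pair the 3 genes most like it. A few of the genes so chosen are not reported here.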

Additional observations from a re-analysis of the deposited data

How the results depend on the processing

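No paired analysis was possible because each group has 1 library and the labels carry no replicate numbers. For members at least 2-fold different, 1.5-fold gave 5 in place of 1 for sFD17 against Ctrl (29.0% of all genes), 3 in place of 1 for FR17 against Ctrl (22.7%), 2 in place of 1 for FR17 against TP5 (24.5%) and 6 in place of 1 for sFD17 against TP5 (31.8%). A prior count of 0.5 gave 2 for sFD17 against Ctrl (13.5% of genes), where Fpr3 reached 1.01, and library size alone (14.4%) and no filter (6.90%) each gave 2 for sFD17 against TP5. With DESeq2's size factors Fpr1 (−1.03) and C5ar1 (−1.05) passed 2-fold in FR17 against sFD17, for 6 in place of 4 (22.05% of genes). For members called by edgeR's exact test, Benjamini-Hochberg adjustment gave 0 in every pair, beside 0% to 2.25% of all genes. A fixed BCV of 0.4 gave 0 for sFD17 against Ctrl (2.37% of genes), FR17 against sFD17 (5.06%) and sFD17 against TP5 (1.89%). One of 0.2 gave 2 for sFD17 against Ctrl (9.28% of genes), 2 for FR17 against Ctrl (6.005%) and 4 for sFD17 against TP5 (9.82%). DESeq2's Wald test gave 0 for FR17 against Ctrl (0.244% of genes) and sFD17 against TP5 (0.849%), and its size factors 0 for the latter (4.70%). The cause was not tested. Over all genes, 1227 to 3613 per pair differed 2-fold, 448 to 2316 with at least 10 counts in every library and 2891 to 5654 without a filter, and the exact test called 299 to 2067, 151 to 829 with a BCV of 0.4, 884 to 3550 with 0.2 and 40 to 1138 by the Wald test. With library size alone the genes higher and lower 2-fold against Ctrl went from 871 and 1059 to 580 and 1534 in sFD17 and from 641 and 586 to 1091 and 316 in FR17, against TP5 from 1153 and 471 to 1600 and 314 in FR17 and from 1103 and 923 to 709 and 1646 in sFD17, and Ltb4r1 in FR17 against sFD17 went from −0.23 to 0.23. With the top gene of each list left out, the platelet markers turned to log2 ratios of 0.19 in TP5 and 0.34 in sFD17, the T cell markers from −0.26 to 0.30 in TP5, and the lung epithelium markers from 0.56 to −0.23 in TP5 and to −0.0025 in sFD17. Depth limits Fpr3, with 12 to 24 counts outside FR17.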
